A study of Homo sapiens with 6 samples.

Results

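LINC symbols are the provisional names given to human long intergenic noncoding RNA genes, that is, genes that lie between protein-coding genes, give transcripts with no recognised open reading frame and have as yet no name of their own. The genes described here were those whose symbol in the deposited FPKM table is LINC followed by digits only. This pattern matched 985 of 60675 gene identifiers, under 980 distinct names. Of these, 380 had at least 1 count over the 6 libraries and 605 had none. The 100 with the highest counts summed over the libraries were chosen by those summed counts, so their levels are given as a description. They held 65553 of the 68802 counts of all matching genes, or 95.3%. The limit fell in a flat stretch of the ranking: the last genes kept were LINC01347 with 58 summed counts, LINC00205 with 58 and LINC00638 with 57, and the next were LINC00461 with 56, LINC01021 with 54 and LINC00936 with 54.

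The RNA came from OCI-AML2, an established human acute myeloid leukaemia line, and was recovered from cell lysates with the antibody J2, which recognises double-stranded RNA whatever its sequence. The cells were transduced with short hairpin constructs, directed at PNPT1 for 3 libraries and at SUPV3L1, also called SUV3, for the other 3. None of the 6 libraries was of control cells or of RNA before precipitation. The sole contrast is therefore SUPV3L1 knockdown against PNPT1 knockdown, and no value below is an enrichment by J2. Both groups share the line, the transduction and the precipitation, and the design text calls the 3 libraries of a group biological replicates. Whether they share a hairpin is not said in the labels, so the spread within a group may include differences between hairpins.

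Long intergenic noncoding RNAs are made by RNA polymerase II and are usually capped, spliced and polyadenylated. They are mostly less abundant than messenger RNAs, and some act in the nucleus on nearby genes while others bind proteins or microRNAs in the cytoplasm. A transcript can be bound by J2 where it folds back on an inverted copy of its own sequence or pairs with a transcript of the opposite strand, and inverted copies of Alu elements, a repeat family found throughout human genes, are a known source of such pairing. PNPT1 encodes the exoribonuclease PNPase and SUPV3L1 the RNA helicase SUV3, which work together to degrade RNA in mitochondria.

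Counts assigned to genes ran from 5852090 to 11361371 per library. PNPT1 knockdown replicate 3 stood apart, with the lowest total, 16620 genes detected against 20765 to 22393 in the others, and 80.1% of alignments not unique against 65.7% to 71.6%. PNPT1 was at 7.66, 18.9 and 17.1 CPM (counts scaled to library size) in the PNPT1 libraries and at 36.3, 27.6 and 21.4 in the SUPV3L1 libraries, without overlap. SUPV3L1 was at 11.5, 18.2 and 25.8 CPM in the PNPT1 libraries and at 12.2, 12.3 and 9.42 in the SUPV3L1 libraries, with overlap. Neither gene passed the test (adjusted p = 0.898 for both by the quasi-likelihood test of edgeR, Benjamini-Hochberg method). Of 6 myeloid markers, CD33, SPI1, CEBPA and CSF3R were each at 28.2 CPM or more in every library, MPO was at 0.822 to 7.07 CPM and ITGAM at 0.512 to 16.3. The lymphoid markers MS4A1 and CD2 and the 3 erythroid markers were at 0.

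The 100 LINC genes together took about 1 in 1000 of the assigned counts. Their share was 0.127%, 0.139% and 0.0733% in PNPT1 knockdown replicates 1 to 3 and 0.110%, 0.122% and 0.122% in SUPV3L1 knockdown replicates 1 to 3. The group means were 0.113% ± 0.0349 (SD, n = 3) and 0.118% ± 0.00682 (SD, n = 3), and the difference of 0.00498 percentage points was smaller than the spread within the PNPT1 knockdown. Counting error was small beside that spread, since the 95% Wilson interval of a library's share was at most ±0.00241 percentage points. The low share belonged to PNPT1 knockdown replicate 3. Without it the SUPV3L1 mean was below the PNPT1 mean by a difference of -0.0149 points.

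**Figure D1:**
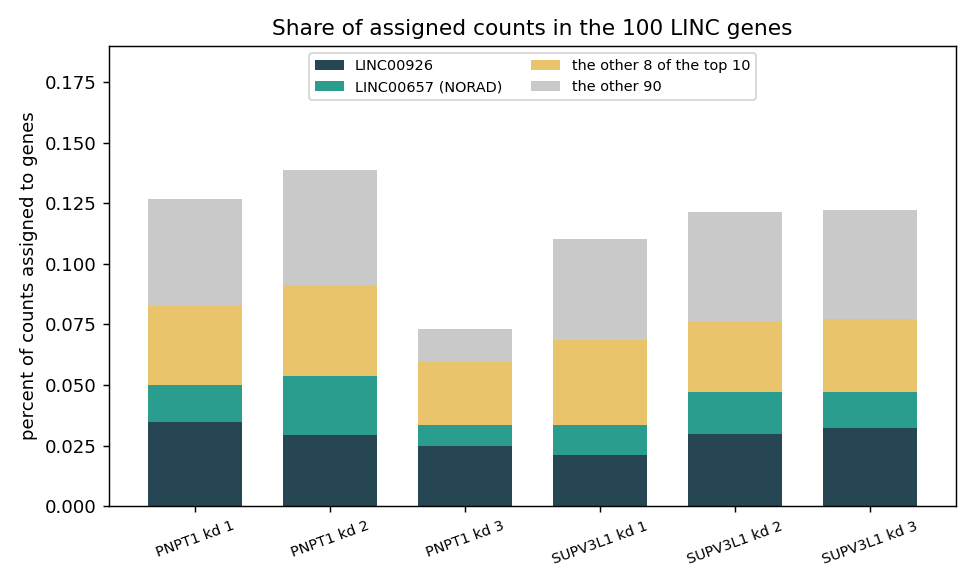
Percent of assigned counts held by the 100 LINC genes in each of the 6 libraries (bars from 0), split into LINC00926, LINC00657, the other 8 of the 10 highest genes and the remaining 90. PNPT1 knockdown replicate 3 is lowest at 0.0733%, and the other 5 libraries lie between 0.110% and 0.139%.

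Mitochondrially encoded genes took 21.7%, 26.6% and 11.3% of the assigned counts in the PNPT1 knockdown and 34.4%, 33.6% and 42.0% in the SUPV3L1 knockdown. With these left out of the total, the LINC share was 0.162%, 0.189% and 0.0826% in the PNPT1 knockdown and 0.168%, 0.183% and 0.211% in the SUPV3L1 knockdown. PNPT1 knockdown replicate 2 still lay above SUPV3L1 knockdown replicates 1 and 2, so the groups overlapped on this scale too.

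A few genes held most of the LINC counts. LINC00926 alone accounted for 24.2% of the counts of the 100 genes, the first 2 for 37.6%, the first 5 for 54.0% and the first 10 for 65.0%. The median gene had 235 counts over the 6 libraries, 24 genes had fewer than 100 and 9 had more than 1000. On the deposited FPKM scale, which divides by gene length and so allows genes to be compared, the mean over the libraries ran from 0.0892 to 52.1 with a median of 1.02. Of the 100 genes, 51 reached 1 FPKM and 5 reached 10 FPKM. The orders by count and by FPKM shared 8 of their first 10 genes.

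LINC00926 (ENSG00000247982, chr15:57300365-57307769, plus strand, GRCh38), described in blood as a transcript of B cells, was the most abundant. Its level was 289, 269 and 369 CPM in the PNPT1 libraries and 198, 283 and 329 CPM in the SUPV3L1 libraries, so the groups overlapped. Of the B-cell markers, MS4A1 was at 0 in the same libraries and CD79A at 0 to 0.262 CPM. The group means of LINC00926 were 309 ± 53.1 and 270 ± 66.1 CPM (SD, n = 3 each), a log2 fold change, always given as SUPV3L1 over PNPT1 knockdown, of -0.19 ± 0.34 (SE).

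LINC00657, now named NORAD (ENSG00000260032, chr20:36045622-36050960, minus strand), is a cytoplasmic transcript known for binding PUMILIO proteins. It was second, at 128, 222 and 131 CPM in the PNPT1 libraries and 113, 160 and 150 CPM in the SUPV3L1 libraries. PNPT1 knockdown replicate 2 was highest and the groups overlapped, with a log2 fold change of -0.19 ± 0.34. Per length the order was the same, with a mean of 52.1 FPKM for LINC00926 and 22.7 FPKM for LINC00657. The FPKM ranges over the 6 libraries, 37.9 to 61.9 and 12.9 to 36.4, did not overlap.

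LINC00599 (ENSG00000253230), now named MIR124-1HG, is the host transcript of the microRNA gene MIR124-1, and all 85 bases of that gene lie in its exons on the same strand. It was at 63.2, 75.4 and 39.2 CPM in the PNPT1 libraries and at 136, 54.1 and 69.1 CPM with SUPV3L1 knocked down. Only SUPV3L1 knockdown replicate 1 lay above the range of the other group. The means were 59.2 ± 18.4 and 86.5 ± 43.8 CPM (SD, n = 3 each), a log2 fold change of 0.54 ± 0.41 that was 0.044 without that library.

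LINC00969, now MUC20-OT1 (ENSG00000242086, chr3:195658062-195739964, plus strand), runs through the mucin gene MUC20 on the same strand and shares 1820 exonic bases with it. Its level was 43.3, 87.8 and 14.8 CPM in the PNPT1 libraries and 75.5, 71.2 and 71.9 CPM in the SUPV3L1 libraries. The 3 SUPV3L1 libraries lay close together, inside the wide range of the PNPT1 libraries. LINC01268, now MROCKI (ENSG00000227502, chr6:113868013-113873351, minus strand), a transcript described in monocytes, was at 30.6, 47.9 and 11.3 CPM in the PNPT1 libraries and at 32.2, 66.3 and 41.0 CPM with SUPV3L1 knocked down. Both genes were lowest in PNPT1 knockdown replicate 3.

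LINC00963 (ENSG00000204054, chr9:129483451-129513686, plus strand) measured 44.6, 47.2 and 15.9 CPM in the PNPT1 libraries and 26.9, 18.8 and 49.2 CPM with SUPV3L1 knocked down. High and low libraries were found in both groups. LINC00662 was at 30.9, 32.3 and 19.4 CPM in the PNPT1 libraries and at 16.9, 18.7 and 22.4 in the SUPV3L1 libraries, where only PNPT1 replicate 3 and SUPV3L1 replicate 3 crossed over. LINC00899 (ENSG00000231711, chr22:46039907-46044853, minus strand) lay between 12.3 and 21.6 CPM in all libraries, with values of 21.6, 17.3 and 12.3 CPM in the PNPT1 libraries and 13.6, 17.6 and 14.2 in the SUPV3L1 libraries.

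Below the first 2, neighbours in the order per length did not differ beyond their spread. LINC00493, a gene of 14.0 FPKM on average, ran from 10.0 to 19.7 FPKM over the libraries, LINC00599, of 13.4 FPKM, from 4.11 to 25.1, and LINC01268, of 10.5 FPKM, from 1.70 to 18.5. LINC00998, LINC01578, LINC00106 and LINC00342 followed at 7.45, 5.53, 4.32 and 4.16 FPKM.

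**Figure D2:**
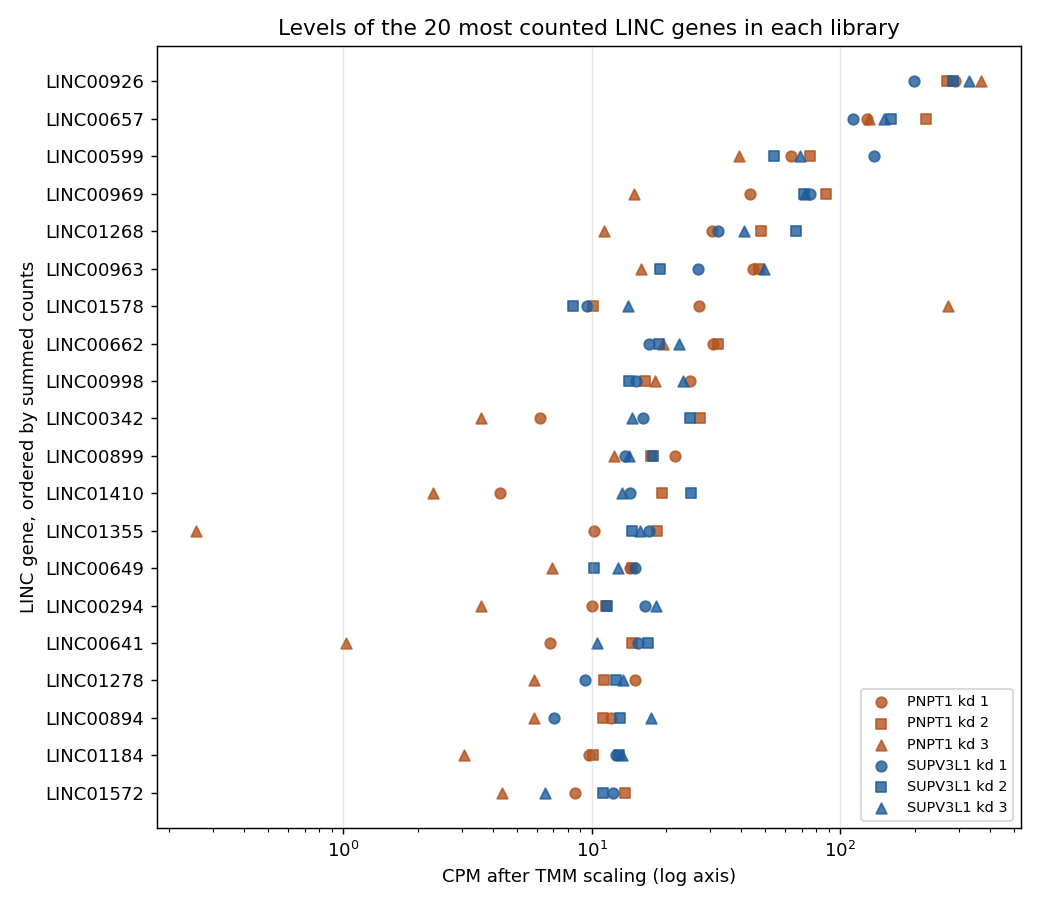
Level of the 20 LINC genes with the highest summed counts, on a log axis of CPM after TMM scaling, with 1 point for each library (orange for PNPT1, blue for SUPV3L1 knockdown, a shape for each replicate). LINC00926 is highest in every library, at 198 to 369 CPM, and the single PNPT1 point far above the rest is LINC01578 in PNPT1 knockdown replicate 3.

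Because J2 binds paired RNA, the longest GENCODE 29 transcript of each gene was searched for inverted repeats, stretches whose reverse complement lies elsewhere in the same transcript. Of the 97 LINC genes found in that annotation, 8 (8.25%) held an exact inverted repeat of at least 20 bases, against 54 of 907 other noncoding genes tested (5.95%) and 787 of 10944 protein-coding genes tested (7.19%). The median transcript was 2553 bases long for the LINC genes, 1868 for the other noncoding genes and 3728.5 for the protein-coding genes, and the shares were not corrected for that. With 30-base repeats the count was 3 of 97 (3.09%), against 2.10% of all genes tested. Imperfect inverted repeats, of at least 100 bases and 70% identity in a self-alignment added after the data were seen, were found in 9 LINC genes (9.28%) against 7.11% of all genes tested.

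The LINC transcript with the most such sequence was LINC00963, with 9557 bases. It held 20 imperfect inverted pairs, the longest aligned over 308 bases at 89.3% identity, and 960 of its bases lay in exact repeats of 20 or more. The exact 40-base pair inside that longest pair lies in the second of its 2 exons, with 1854 bases between the arms.

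LINC00899 held a long pair with a short spacing, in a transcript of a single exon. Its arms, of 176 bases each, lie 146 bases apart and align over 179 columns at 81.0% identity, with 40 bases that are exact reverse complements of each other.

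LINC00294 (ENSG00000280798, chr11:33076149-33079454, plus strand) was the most abundant of the LINC genes whose groups did not overlap on the CPM scale with the SUPV3L1 knockdown higher. Its inverted repeat arms lie 929 bases apart in 1 exon and align over 297 columns at 83.8% identity, with 21 bases that are exact reverse complements of each other.

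A different kind of pair was found in LINC00847, where 24 exact bases at chr5:180835095-180835118 (GRCh38, plus strand) recur inverted at chr5:180835410-180835433, 291 bases on, with no imperfect pair of 100 bases around them. These arms are printed 5′ to 3′ as an example of a short exact pair, in capitals throughout because each arm is the full reverse complement of the other. Whether J2 binds a pair of 24 bases was not tested.

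LINC00847 arm 1: AAGTTGGAAGGCCTGAGAAACAAG
LINC00847 arm 2: CTTGTTTCTCAGGCCTTCCAACTT

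The other LINC genes with an inverted repeat of either kind were LINC00649, LINC00910, LINC00957, LINC01569, LINC00900 and LINC01296, which makes 10. The median level of the 10 genes, from their means over the libraries, was 1.15 FPKM, against 1.01 FPKM for the other LINC genes in the annotation. Their median log2 fold change was -0.01, with 5 of 10 above 0, against 0.37 and 62 of 84 for the others tested. Both are descriptions of these genes, and the difference was not tested. Repeats in introns were not examined, and whether these arms pair in the cells was not measured. Nor was it tested which of them are long enough to be bound by J2.

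**Figure D3:**
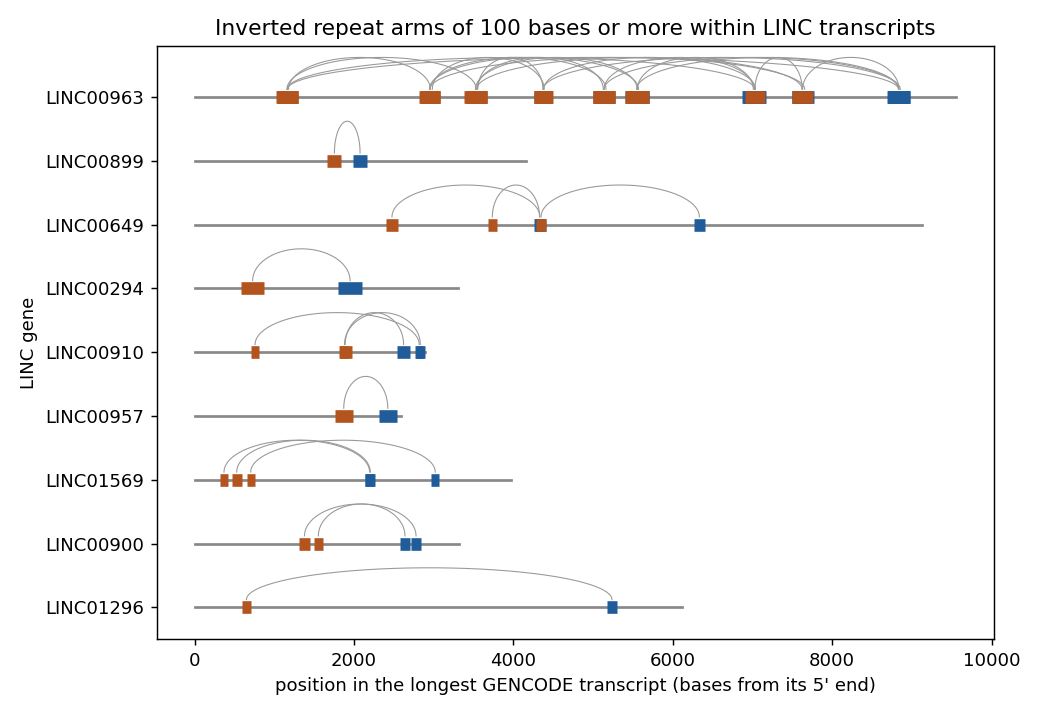
Inverted repeat arms of 100 bases or more along the longest transcripts of 9 LINC genes (grey lines), in bases from the 5′ end, with the first arm of a pair in orange, the second in blue and an arc between them. LINC00963 carries 20 imperfect pairs, and the arms of LINC00899 are 146 bases apart.

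No LINC gene passed the test between the knockdowns. Of the 100 genes, 97 passed the low-count filter (LINC00656, LINC01347 and LINC00638 did not), and 0 of them had an adjusted p under 0.05 by the same edgeR test with Benjamini-Hochberg adjustment over 13275 genes, as did 0% of all genes tested. The smallest adjusted p among them was 0.898 by that edgeR test. Without adjustment 2 genes, or 2.06%, had a p under 0.05, against 4.09% of all genes tested. These were LINC01127, higher in the SUPV3L1 knockdown (1.7% of all genes), and LINC01578, lower (2.39% of all genes). DESeq2 called 0 of them, against 0.136% of all genes tested, and had 3 at an unadjusted p under 0.05, or 3.09%, against 5.55% of all genes. By edgeR with no low-count filter 7 of 100 genes reached that unadjusted p (7%, against 5.54% of all genes), and with 50 counts required 1 of 29 did (3.45%, against 4%).

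Most log2 fold changes lay on the SUPV3L1 side of 0. They were above 0 in 69 of 97 genes, or 71.1%, against 50.7% of all genes tested. The median was 0.26, against 0.01 over all genes, with quartiles at -0.07 and 0.75. Among the 50 LINC genes with the highest summed counts it was 0.16. The set of all genes was not matched to the LINC genes for level. On the deposited FPKM scale, log2(FPKM + 0.1) in limma, 81.4% lay above 0, where all genes also shifted to 63.7% above 0 and a median of 0.17. In size, 50 genes were within 0.5 of 0, 14 were above 1 and 2 were below -1.

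The size of this lean moved with single libraries. The median was 0.44 without PNPT1 knockdown replicate 1, 0.52 without PNPT1 knockdown replicate 2, 0.42 without SUPV3L1 knockdown replicate 1 and 0.26 to 0.29 without SUPV3L1 knockdown replicate 2 or 3. No median over all genes is given beside these values, so their changes are not shown to be particular to LINC genes. PNPT1 knockdown replicate 3 was the lowest of the 6 libraries in 66 LINC genes, or 68% of those tested, against 36.4% of all genes. Without that library, 55 of 100 genes, or 55%, lay above 0 (50.9% of all genes), the median was 0.13 (0.01 over all genes), and 1 gene, LINC00662, was at an unadjusted p under 0.05 (2.61% of all genes). Leaving out PNPT1 knockdown replicate 2 instead gave 16 LINC genes at an unadjusted p under 0.05, 15 of them higher in the SUPV3L1 knockdown and LINC01578 lower. That was 16.3% of the 98 tested, and 15.3% of all genes reached it in the same fit, whose smallest adjusted p for a LINC gene was 0.243 by edgeR. Leaving out SUPV3L1 knockdown replicate 2 gave 4.08% of the LINC genes tested, against 3.44% of all genes.

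**Figure D4:**
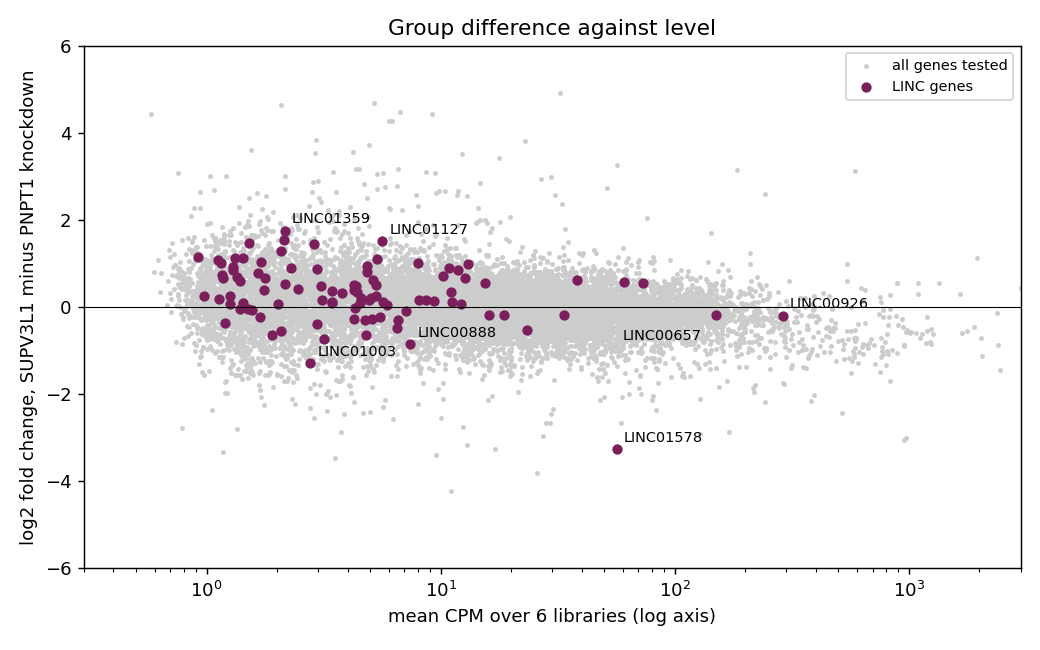
Log2 fold change (SUPV3L1 over PNPT1 knockdown) of each tested LINC gene against its mean level on a log axis of CPM (purple), over all genes tested (grey). Most purple points lie above 0, with a median of 0.26, and LINC01578 lies lowest at -3.26.

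On the CPM scale, in 9 LINC genes the 3 libraries of one group lay all above those of the other (9.28%, against 8.56% of all genes tested). The SUPV3L1 knockdown was higher in 8 of them (8.25%, against 4.62% of all genes) and lower in LINC00152 (1.03%, against 3.94%). On the deposited FPKM scale, an alternative chosen after seeing the data, 5 LINC genes did not overlap (5.15%, against 6.72% of all genes). The SUPV3L1 knockdown was higher in 4 of these (4.12%, against 3.22%), LINC01184, LINC01422, LINC01232 and LINC00654, and lower in LINC01003 (1.03%, against 3.5%). Only 3 genes, LINC01184, LINC01422 and LINC00654, did not overlap on either scale (3.09%, against 4.05%).

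LINC00294, first of these in level, was at 10.1, 11.4 and 3.58 CPM in the PNPT1 libraries and at 16.4, 11.5 and 18.2 CPM with SUPV3L1 knocked down. Replicate 2 of each group nearly met, and on the FPKM scale they crossed, at 2.92 FPKM in the PNPT1 and 2.73 in the SUPV3L1 library. The fitted difference was 0.85 ± 0.46 on the log2 scale, or 0.51 with PNPT1 knockdown replicate 3 left out. Its exons overlap those of CSTF3, a cleavage factor gene on the opposite strand, by 263 bases. Whether counting kept the strands apart was not stated in the labels, so how reads of the overlap were counted is not known. LINC01184, which starts 594 bases from SLC12A2 in the other direction, was at 9.75, 10.1 and 3.07 CPM against 12.5, 12.9 and 13.2 CPM. Its SUPV3L1 libraries were close together, and its log2 fold change was 0.72 ± 0.46.

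LINC01422 was at 1.99, 1.22 and 0.256 CPM in the PNPT1 libraries and at 3.12, 3.11 and 2.82 CPM with SUPV3L1 knocked down, a log2 fold change of 1.28 ± 0.66. The groups did not overlap on either scale, and 0.256 CPM in PNPT1 knockdown replicate 3 stands for 1 read. The other 5 genes without overlap on the CPM scale were LINC00630, LINC00623, LINC01481, LINC01176 and LINC00654, with log2 fold changes of 0.36 to 0.93. LINC01481 is typed antisense in GENCODE and shares 295 bases with CNOT2, a subunit gene of the deadenylase complex, on the opposite strand.

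LINC01127 (ENSG00000281162, chr2:101962056-101987167, plus strand) had the smallest p among the genes higher in the SUPV3L1 knockdown. It was at 4.68, 2.79 and 1.02 CPM in the PNPT1 libraries and at 5.76, 4.43 and 15.1 CPM with SUPV3L1 knocked down. The groups overlapped, and SUPV3L1 knockdown replicate 3 alone was far above the rest. Its log2 fold change was 1.51 ± 0.66, with an unadjusted p of 0.0431 and an adjusted p of 0.898 by edgeR, and 0.80 without that library.

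The remaining genes of the 10 smallest p-values in that direction were LINC00886, LINC01588, LINC01359, LINC01232, LINC00200 and LINC00863, with log2 fold changes of 1.02 to 1.76. LINC00200 was the most abundant of these, at 4.48, 10.0 and 1.02 CPM in the PNPT1 libraries and 11.3, 13.6 and 7.80 CPM in the SUPV3L1 libraries, with overlap through PNPT1 knockdown replicate 2. LINC01359 had the highest log2 fold change, 1.76 ± 0.96, from 0.597, 2.10 and 0 CPM against 5.92, 0.849 and 3.47 CPM. In both genes the lowest value was that of PNPT1 knockdown replicate 3.

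LINC01578 (ENSG00000272888, chr15:92882707-92899701, plus strand), now named CHASERR, is transcribed next to CHD2, a chromatin remodeller gene whose expression it is known to restrain. It had 27.1, 10.1 and 270.5 CPM in the PNPT1 libraries and 9.54, 8.39 and 14.0 CPM in the SUPV3L1 libraries, from counts of 272, 116 and 1057 against 116, 89 and 129. The third PNPT1 library was far above the other 5, which overlapped between the groups. Its log2 fold change was -3.26 ± 0.99, with an unadjusted p of 0.00754 and an adjusted p of 0.898 by edgeR, and -0.82 without that library. With no low-count filter the adjusted p by edgeR was 4.83e-11, in a fit that called 0.667% of 28015 genes, and over the alternatives tried it ran from 4.83e-11 to 0.999.

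CHD2 did not share that pattern. It was at 107, 71.1 and 89.1 CPM in the PNPT1 libraries and at 76.1, 52.6 and 92.0 CPM with SUPV3L1 knocked down, with a log2 fold change of -0.27 ± 0.32. On the deposited FPKM scale LINC01578 was again highest in PNPT1 knockdown replicate 3, at 22.3 FPKM against 1.32 to 4.65 in the others.

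Other genes on the PNPT1 side also leaned on that library. LINC01003 was at 2.09, 2.62 and 7.17 CPM in the PNPT1 libraries and at 1.23, 1.23 and 2.27 in the SUPV3L1 libraries, a log2 fold change of -1.28 ± 0.66 that was -0.59 without it. LINC00888, in whose exons an annotated small RNA of 131 bases lies, was at 7.27, 6.81 and 14.6 CPM against 3.95, 3.68 and 8.12 CPM, with -0.85 ± 0.51 and -0.44 without it. On the deposited FPKM scale the PNPT1 libraries of LINC00888 were close together, at 3.36, 2.88 and 3.17 FPKM. Leaving out PNPT1 knockdown replicate 3 moved LINC00662 the other way, from -0.52 ± 0.33 to -0.72. LINC00674 and LINC00862 were each at -0.64, with standard errors of 0.57 and 0.93.

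LINC00152, now CYTOR, a transcript known from studies of tumours, was at 7.07, 6.11 and 8.70 CPM in the PNPT1 libraries and at 6.08, 6.04 and 5.52 CPM with SUPV3L1 knocked down. The groups nearly met, overlapped on the FPKM scale, and the log2 fold change was -0.30 ± 0.42. Its exons contain MIR4435-1, and since a near-identical copy of the gene exists on the same chromosome, its counts are uncertain.

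Some LINC genes were later found to encode small proteins. Of 9 such genes listed, 8 are in the files and 5 are among the 100, with 1 log2 fold change above 0, 4 below 0 and a median of -0.17. LINC00998, now SMIM30, a small membrane protein gene, was the most abundant by count, at 24.8, 16.4 and 17.9 CPM in the PNPT1 libraries and 15.1, 14.1 and 23.3 CPM in the SUPV3L1 libraries. The groups overlapped.

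LINC00493, now SMIM26, which encodes a small mitochondrial protein, was at 4.98, 4.28 and 13.6 CPM in the PNPT1 libraries and at 5.92, 5.47 and 4.66 CPM with SUPV3L1 knocked down. On the CPM scale only PNPT1 knockdown replicate 3 was high, and the log2 fold change of -0.47 ± 0.54 became 0.20 without it. On the deposited FPKM scale the PNPT1 libraries were at 19.7, 10.0 and 17.5 FPKM, so that replicate 1 was highest. LINC01420, now NBDY, whose microprotein binds the decapping machinery, was at 3.78, 2.27 and 5.89 CPM against 2.88, 1.13 and 3.03 CPM, with a log2 fold change of -0.73 ± 0.61. LINC00116, now MTLN, encoding the mitochondrial microprotein mitoregulin, was at 2.69, 4.72 and 5.63 CPM against 5.59, 2.55 and 4.55 CPM, with -0.02 ± 0.54, a value that was above 0 with upper quartile scaling. LINC00665 was at 0.08 ± 0.85, with at most 2.39 CPM in any library.

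Of 6 LINC genes later given a functional name, 4 are among the 100: LINC00657, LINC00152, LINC01578 and LINC00094. Their log2 fold changes were below 0 in 3 and above 0 in 1, with a median of -0.24. LINC00094, now BRD3OS, was the one above 0, at 2.19, 6.72 and 0.768 CPM in the PNPT1 libraries and 4.77, 7.36 and 7.36 CPM in the SUPV3L1 libraries, or 0.95 ± 0.67. It shares 1281 exonic bases with BRD3, a bromodomain gene on the opposite strand.

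Of 8 LINC genes listed for blood cells or leukaemia, 6 are among the 100, with 3 above 0, 3 below 0 and a median of -0.05. LINC00926, LINC00899 and LINC01268 were given above. LINC00649, typed antisense with 300 bases opposite ATP5PO, a subunit gene of the ATP synthase, was at 14.2, 14.5 and 6.91 CPM in the PNPT1 libraries and at 14.9, 10.2 and 12.8 CPM with SUPV3L1 knocked down. LINC00265 had a log2 fold change of 0.25 ± 0.57. LINC00173, known from granulocyte differentiation, was at 6.67, 1.48 and 1.79 CPM against 1.40, 0.377 and 6.06 CPM, so that 1 library of each group was high. LINC00861 had 0 counts.

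Libraries of different groups resembled each other in these genes. Across the 100 genes, Pearson's r of log2 CPM was highest between PNPT1 knockdown replicate 2 and SUPV3L1 knockdown replicate 2, at 0.950, then between PNPT1 knockdown replicate 1 and SUPV3L1 knockdown replicate 3, at 0.919, and between PNPT1 knockdown replicate 2 and SUPV3L1 knockdown replicate 1, at 0.916. These are correlations across genes, which are not independent replicates. No value over all genes is given beside them, so the resemblance is not shown to be particular to LINC genes. The values of PNPT1 knockdown replicate 3 with the other libraries were 0.643 to 0.821. Within groups, r was 0.706 to 0.845 in the PNPT1 knockdown and 0.853 to 0.883 in the SUPV3L1 libraries.

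The first 2 of these pairs of libraries also showed up gene by gene. The 2 highest libraries were PNPT1 knockdown replicate 2 and SUPV3L1 knockdown replicate 2 in 18 LINC genes (18.6%, against 13.9% of all genes tested). LINC00342 was one of these, at 6.17, 27.3 and 3.58 CPM in the PNPT1 libraries and 16.1, 24.9 and 14.5 CPM in the SUPV3L1 libraries, and LINC00106 was another, at 3.68, 10.9 and 1.54 CPM against 2.38, 12.1 and 3.46 CPM. The 2 highest were PNPT1 knockdown replicate 1 and SUPV3L1 knockdown replicate 3 in 17 genes (17.5%, against 9.98% of all genes). Among these were LINC00998 and LINC00173, given above, and LINC00847, at 9.65, 5.68 and 6.65 CPM against 6.25, 3.02 and 11.5 CPM. The replicate numbers were given in accession order and link no libraries, and what these pairs have in common was not tested.

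**Figure D5:**
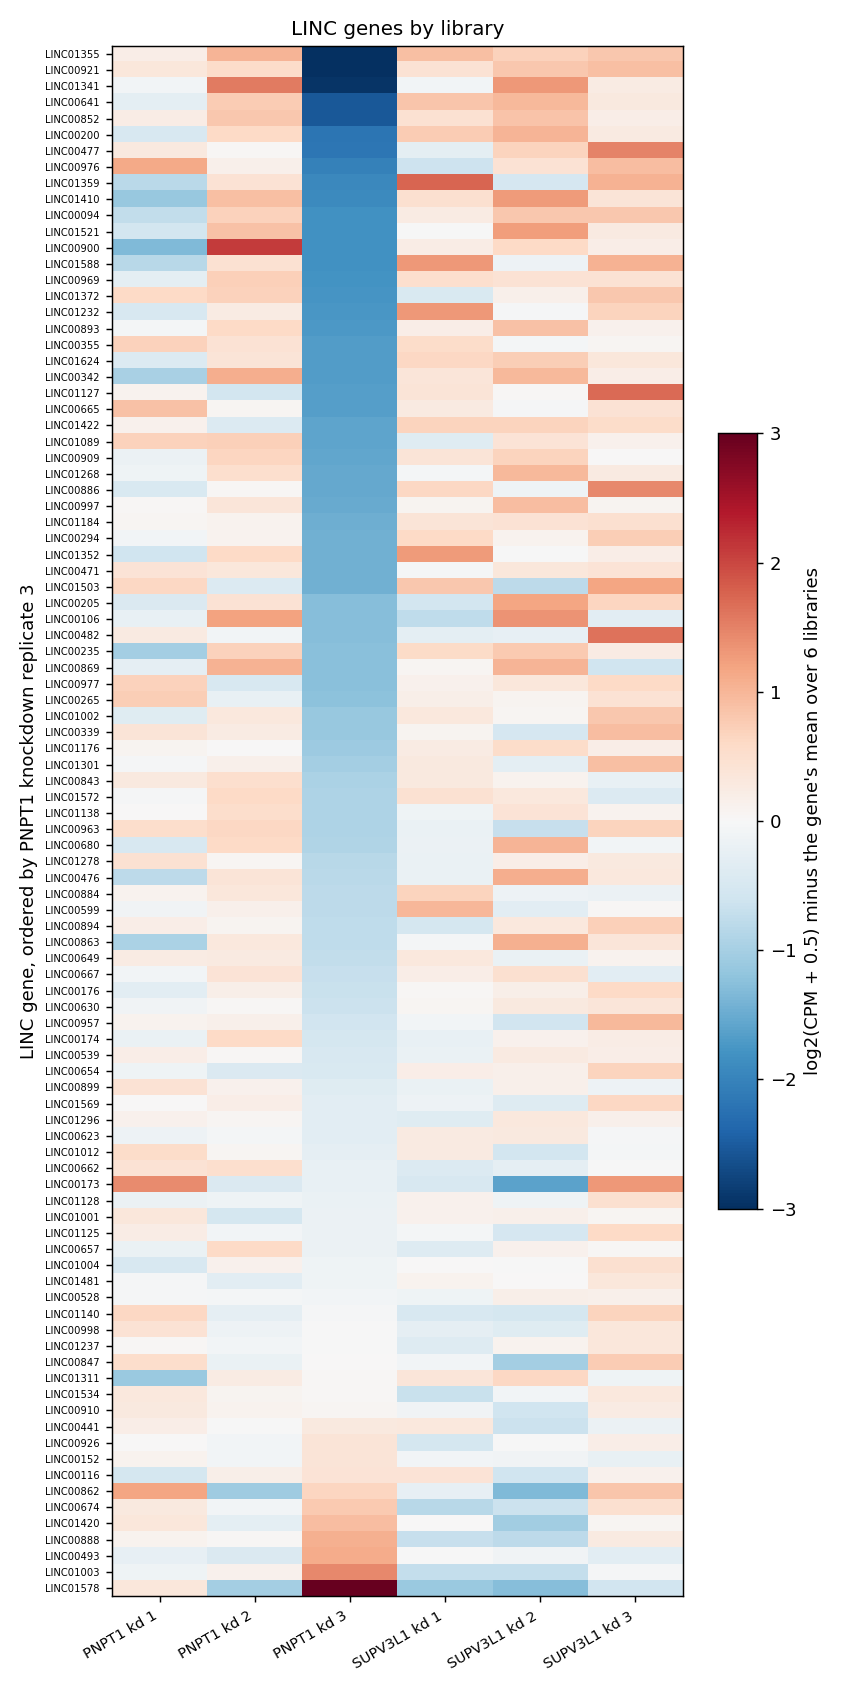
Level of 96 tested LINC genes (rows) in the 6 libraries (columns), as log2(CPM + 0.5) minus the gene's mean over the libraries. The column of PNPT1 knockdown replicate 3 is lowest for most rows and highest for a small set that includes LINC01578.

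Fewer LINC genes were detected in PNPT1 knockdown replicate 3, whose assigned counts were also the lowest. It detected 84 of the 100 genes, where the others detected 99 or 100, and 16 genes were at 0 in it alone. The median LINC gene was at 1.41 CPM in it and at 3.25 to 4.39 CPM in the others, and the 10 highest genes held 81.4% of its LINC counts against 62.2% to 65.8%. With a count of 0 in 5852090, up to 3 counts remain possible, so these zeros show that the genes were not detected at this depth. LINC01341 had counts of 31, 122 and 0 in the PNPT1 knockdown and 38, 94 and 37 in the SUPV3L1 libraries. LINC01355 was at 10.3, 18.3 and 0.256 CPM against 16.9, 14.5 and 15.7 CPM, where 0.256 CPM stands for 1 read. Both genes were well detected in the other 5 libraries.

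A few genes did the reverse. On the CPM scale, PNPT1 knockdown replicate 3 was the highest library in 9 LINC genes (9.28%, against 30.6% of all genes tested): LINC00926, LINC01578, LINC00888, LINC00152, LINC00493, LINC00674, LINC00116, LINC01420 and LINC01003. Of these, 3 are among the 7 LINC genes that GENCODE 29 types as protein-coding, of which another 2 were lowest in that library, and 2 are typed as pseudogenes. The pattern depended on the scale. On the deposited FPKM scale that library was still the highest for LINC01578, LINC00674 and LINC01003. It was not the highest for LINC00926, LINC00888, LINC00152, LINC00493, LINC00116 and LINC01420. In PNPT1 knockdown replicate 3, the loci of a few chosen genomic clones took 37.7% of assigned counts, against 10.9% to 22.1% in the others. Other loci named after clones were not included in that share. Mitochondrially encoded genes took 11.3% in the same library against 21.7% to 42.0%, and the TMM factor was 0.669 against 0.988 to 1.21. The part of these differences in the LINC values was not tested. Fewer cells with a transcript and less of it per cell cannot be told apart in such libraries.

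The name LINC covered genes of several kinds. GENCODE 29 held 97 of the 100, of which it typed 59 as lincRNA, 15 as processed transcript, 8 as antisense, 7 as protein-coding, 6 as transcribed pseudogene and 2 as bidirectional promoter noncoding RNA. It listed 12 under another name, and 24 have another symbol today. So the label intergenic noncoding RNA goes against the annotation for the protein-coding and antisense genes. LINC01089 is an example of overlap, with 1724 bases shared with RHOF on the same strand and a start 274 bases from that of SETD1B in the other direction.

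Many LINC genes overlapped other genes, and the share among genes outside the LINC set was not computed. Exons overlapped an annotated gene on the opposite strand in 35 of the 97 and on the same strand in 23, while 49 had neither. A gene started within 1000 bases in the other direction in 19. The log2 fold change was above 0 in 28 of the 35 genes with opposite-strand overlap, with a median of 0.35, and in 39 of the 59 tested genes without it, with a median of 0.25. Longest transcripts ran from 370 bases in LINC00106 to 9557 in LINC00963, and GC content from 35.6% to 63.6% with a median of 49.2%.

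The 3 genes that did not pass the low-count filter had few counts or had them in 1 library. LINC00656 had 1, 11 and 1 counts in the PNPT1 knockdown and 50, 1 and 0 in the SUPV3L1 libraries, so that it was among the 100 through SUPV3L1 knockdown replicate 1. No comparison is drawn from these genes.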

How the data were processed

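Whole-number read counts for 60675 gene identifiers per library were deposited, with an FPKM table (fragments scaled to gene length and depth) deposited for the same genes. Per the submitters' processing notes, HISAT2 2.2.1, SAMtools 1.14, StringTie 2.1.4, HTSeq and the GRCh38 genome were used. Not given in the sources used here: the annotation release, the HTSeq strand setting and the tool behind the FPKM values. The labels' protocols name a directional library kit. FPKM columns were matched to libraries by title, and replicates were numbered in accession order. The summary lines of the count files entered no fit. Non-unique alignments, 65.7% to 80.1% of entries, give no counts, which lowers genes with close copies or repeats.

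LINC genes were joined to the counts by gene identifier. The members and gene lists were chosen with earlier results of these data known. All 60675 genes were fitted together with edgeR 4.0.16 in R 4.3.3 (quasi-likelihood test, TMM scaling, default filter of a minimum count of 10 and a total of 15, Benjamini-Hochberg threshold 0.05), with DESeq2 1.42.0 and limma 3.58.1 on log2 of the deposited FPKM plus 0.1 or 1 as alternatives. On simulated counts, 193 of 200 genes changed by a log2 fold change of 3 were recovered among 13022 tested. The simulation used a fixed dispersion (spread between replicates) of 0.05 for every gene and no deviant library. It was a check of the fit and does not give the power in these data. Levels are CPM after TMM scaling. Standard errors are the absolute log2 fold change over the square root of F. Wilson intervals and the limit of 3 counts for a zero cover counting error only.

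Genes named were the 10 with the highest mean CPM, the 10 with the smallest p in each direction, those on the 3 lists (small proteins, later names, blood) and those on either side of rank 100. A gene of that rule, a marker and some repeat sequences are not reported here. Others were named after their values were seen, as examples of non-overlap, inverted repeats, annotation or library patterns. Positions, types and transcripts are from GENCODE 29 (GRCh38), which may not be the release the authors counted with. Imperfect repeats were found with blastn (BLAST 2.17.0).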

Additional observations from a re-analysis of the deposited data

How the results depend on the processing

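No LINC gene passed the adjusted threshold with any 1 library left out (0 to 0) or under any alternative but one: with no low-count filter 1 gene, LINC01578, passed at a log2 fold change of -3.20. The count at an unadjusted p under 0.05 was 7 with no filter (7%, against 5.54% of all genes) and 1 with 50 counts required (3.45%, against 4%), and 1 to 16 with 1 library left out. Groups did not overlap in 5 genes with the deposited FPKM, chosen after seeing the data, against 9 with CPM. The median log2 fold change stayed above 0, at 0.13 to 0.52 with 1 library left out. The difference of the LINC share of counts was 0.0427 percentage points without mitochondrial counts and -0.0149 to 0.0179 with 1 library left out. With 30-base words 3 genes held exact inverted repeats. LINC00116 changed sign, to 0.0446 with upper quartile scaling, 0.0034 with no filter, and 0.0868 and 0.0687 with FPKM + 0.1 and + 1, as did LINC00963, to 0.0698 with FPKM + 0.1. The causes were not tested.

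With 1 library left out, log2 fold changes crossed 0 for LINC00998 (-0.43 to 0.0262), LINC00899 (-0.37 to 0.0244), LINC00862 (-1.66 to 0.11), LINC00173 (-1.90 to 0.67), LINC00657 (-0.33 to 0.11), LINC00963 (-0.66 to 0.0644), LINC00116 (-0.29 to 0.23), LINC00665 (-0.38 to 0.97), LINC00493 (-0.77 to 0.20), LINC00649 (-0.19 to 0.22) and LINC00265 (-0.12 to 0.93). No paired analysis was possible because the labels give no replicate numbers that link libraries. Depth limits the 24 genes with fewer than 100 summed counts most.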
